A study of Mus musculus with 9 samples.

Results

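Pyrimidine breakdown and pyrimidine synthesis were followed through 10 genes in mouse livers with and without hepatocellular carcinoma (HCC). The genes were Upp2, Upp1, Tymp and Cda, which act where nucleosides enter breakdown, Dpyd, Dpys and Upb1, which break uracil and thymine down, and Cad, Dhodh and Umps, which make uridine monophosphate (UMP). They make up 10 of the 55401 genes counted in each liver. The set was chosen by the fold changes of Upp2 in these same livers together with the pathway that Upp2 belongs to. Levels and fold changes of the 10 genes are therefore a description, and no p-value is given for them.

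Pyrimidines are both made and destroyed in the liver. Synthesis starts from glutamine and aspartate, and the enzymes CAD, DHODH and UMPS carry it to UMP, from which all other pyrimidine nucleotides derive. Breakdown starts when uridine phosphorylase splits uridine into uracil and ribose-1-phosphate. Uracil and thymine are then reduced by dihydropyrimidine dehydrogenase (Dpyd), opened by dihydropyrimidinase (Dpys) and cleaved by β-ureidopropionase (Upb1) to the β-amino acids β-alanine and β-aminoisobutyrate. The liver is known as a main site of this route and as a regulator of circulating uridine. Dihydropyrimidine dehydrogenase is also the enzyme that clears the drug fluorouracil.

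Whole livers of 9 female mice were sequenced, 3 in each of 3 groups. Healthy livers were wild type and received no treatment. Tumors were induced at an age of 6 weeks with sleeping beauty transposon plasmids, forced into hepatocytes by a rapid tail vein (hydrodynamic) injection, for activated AKT (pT3-EF1α-HA-myr-AKT) and NRAS (pT/Caggs-Nras-v12), with the transposase on pCMV-SB11. At 1 week after the oncogenes these mice received adeno-associated virus serotype 8 (AAV8), either blank (untreated HCC) or carrying miR-22 under a CMV promoter (miR-22-treated HCC), and the livers were taken at 5 weeks. Both HCC groups therefore carry the oncogenes, the transposase and AAV8, and the healthy livers carry none of them, so that tumor, injection and virus cannot be told apart in a comparison with healthy livers. The sample labels also list a β-catenin plasmid (pT3-EF1α-N90-β-catenin) among those used, name FVB/N in one field and C57BL/6 in another, and give a virus dose that differs from the methods. An age of 6 weeks is recorded for healthy and HCC mice alike. No age at collection is given for the healthy livers, and no hour of collection or feeding state for any liver.

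The libraries held 16664659 to 23908392 counts. Albumin, the main secreted protein of hepatocytes, took 5.11% to 8.97% of them, and all 10 hepatocyte markers examined were present in every group. The row for Mir22 was at 0 in all 9 livers, so the vector's miR-22 could not be followed in it. Mir22hg, the host transcript of the endogenous miRNA, spanned 1096 to 1375 normalized counts among healthy livers, 257 to 399 among untreated and 542 to 634 among miR-22-treated HCC livers. Whether reads from the vector were counted in that row was not tested. Throughout, a normalized count is the deposited count scaled for library size and composition (TMM). The call used for a gene asks for more than a 1.5-fold difference and an adjusted p under 0.05.

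The sequence delivered was that of miR-22-3p, shown here because the treatment is this miRNA and its seed (bases 2 to 8, capitals) sets which transcripts it can pair with.
mmu-miR-22-3p: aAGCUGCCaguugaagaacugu
The 3′ UTRs of the 10 genes were searched for GGCAGCT, the 7 bases that pair with this seed, in the canonical transcript of GENCODE on GRCm39. Upb1 and Umps held 1 match each, at base 346 and base 188 of the 3′ UTR, whereas Upp2 and the other genes held none. Of all 20693 canonical 3′ UTRs, 2910 held a match, which is 14.1%. Both sites are shown with the seed match in capitals; the Upb1 site lies at chr10:75276131-75276151 on the + strand and the Umps site at chr16:33776938-33776958 on the - strand.
Upb1 site: atacctgggcgtgGGCAGCTt
Umps site: ctggtatttgtttGGCAGCTg

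Upp2 lies on chromosome 2 from 58457282 to 58685857 on the + strand (GRCm39), and RefSeq gives it 2 transcription starts. Both are shown because the counts are summed per gene, so that the values below cannot be assigned to either start. Each line is the 250 bases before the start, at chr2:58457096-58457345 for the upstream start and chr2:58644946-58645195 for the downstream start. Capitals mark matches on either strand to 8 short motifs whose letters stand with their frequencies after the sequences; no marked matches overlap.
Upp2 upstream start: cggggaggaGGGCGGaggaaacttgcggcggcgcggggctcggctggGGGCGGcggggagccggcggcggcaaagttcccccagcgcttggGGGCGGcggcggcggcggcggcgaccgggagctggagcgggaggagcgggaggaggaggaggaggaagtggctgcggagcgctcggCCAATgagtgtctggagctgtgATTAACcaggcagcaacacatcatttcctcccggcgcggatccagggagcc
Upp2 downstream start: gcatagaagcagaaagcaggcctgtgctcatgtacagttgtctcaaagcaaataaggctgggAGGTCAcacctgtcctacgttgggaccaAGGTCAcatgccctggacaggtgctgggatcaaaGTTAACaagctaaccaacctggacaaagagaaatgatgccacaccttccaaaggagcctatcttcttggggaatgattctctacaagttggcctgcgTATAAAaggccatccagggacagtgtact
The upstream window was 73.2% G and C and held 3 matches to GGGCGG. The downstream window was 49.2% G and C, with TATAAA beginning 29 bases before the start, AGGTCA at 188 and 160 bases and GTTAAC at 126 bases before it. Of the 32851 RefSeq promoter windows of this length, 12.4% held TATAAA, 32.7% GGGCGG, 33.8% CCAAT, 6.0% CACGTG, 14.0% AGGTCA, 6.4% GTTAAT, 2.6% GTTAAC and 6.5% GATAAG. A match is a run of letters, not a site shown to be bound.

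Untreated HCC held less Upp2 and less of the 3 uracil breakdown enzymes than healthy livers, and miR-22-treated HCC held more of all 4 than untreated HCC. The synthesis genes differed far less. In untreated HCC against healthy livers, 7 of the 10 genes met the call, 1 higher and 6 lower, while over all 15717 tested genes 40.8% were called, 22.7% higher and 18.1% lower. In miR-22-treated against untreated HCC, 4 of 10 met it, all higher, beside 13.8% of all genes, 8.32% higher and 5.47% lower. The last share rested on single livers: the 859 genes called lower became 415 without miR-22-treated liver 3, 481 without untreated liver 3 and 565 without untreated liver 2, while the 1308 called higher became 1018, 1015 and 1088. In miR-22-treated HCC against healthy livers, 4 of 10 met it, all lower, beside 24.0% of all genes, 16.9% higher and 7.05% lower. All 10 passed the filter on low counts. Because tissue was sequenced whole, fewer cells of a type and less RNA per cell cannot be told apart in any of these values.

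**Figure D1:**
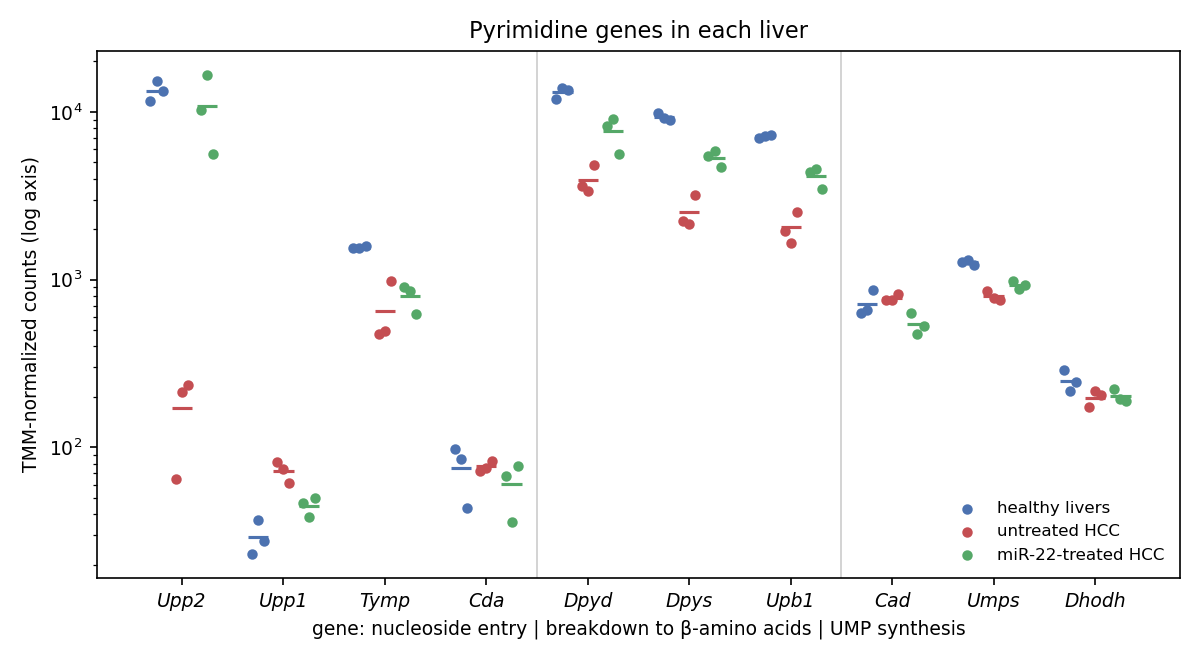
TMM-normalized counts (log axis) of the 10 pyrimidine genes in each of the 9 livers, with a point for each liver, a line for each group mean, and the genes ordered as nucleoside entry, breakdown and UMP synthesis. Upp2 lay between 64.6 and 236 in untreated HCC and at 5613 or more in every other liver, whereas Cad, Umps and Dhodh stayed within a narrow band.

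Upp2 encodes uridine phosphorylase 2, the liver form of the enzyme that opens uridine to breakdown. Its normalized counts were 11556, 15300 and 13358 in the 3 healthy livers, 64.6, 215 and 236 in untreated HCC, and 10281, 16673 and 5613 in miR-22-treated HCC. Untreated HCC stood apart from both other groups without overlap, whereas the miR-22-treated and healthy livers overlapped. The mean in untreated HCC was 1.28% of the healthy mean, and in miR-22-treated HCC 81.0%. The log2 fold change was -6.28 (standard error, SE, 0.489) in untreated HCC against healthy livers, 5.97 (SE 0.483) in miR-22-treated against untreated HCC and -0.30 (SE 0.382) in miR-22-treated HCC against healthy livers. Both HCC groups were also the most variable for this gene, with a coefficient of variation of 54.4% in untreated and 51.1% in miR-22-treated HCC against 14.0% in healthy livers. Leaving out any 1 liver kept the difference between the HCC groups between 5.52 and 6.28 on the log2 scale. For miR-22-treated HCC against healthy livers the value ran from -0.75 to 0.01, so that it depended on single livers. Upp2 shares exonic bases with Acvr1 on the other strand, and the libraries do not keep strand. Acvr1 held 2851 counts over all 9 livers together, so that part of the low Upp2 counts in untreated HCC (71, 247 and 325 reads) cannot be told apart from it.

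Upp1 encodes uridine phosphorylase 1, the form found in most other tissues, and its groups stood in the opposite order. It was scarce in all groups, with 23.2, 36.7 and 27.7 normalized counts in healthy livers, 81.8, 74.7 and 61.6 in untreated HCC, and 46.6, 38.4 and 49.8 in miR-22-treated HCC. The 3 groups did not overlap, with healthy livers lowest and untreated HCC highest. The log2 fold change of 1.31 (SE 0.257) in untreated HCC against healthy livers met the call. The change of -0.68 (SE 0.245) with miR-22 did not meet it, although it did under 3 of the 17 alternative settings, and neither did the 0.63 (SE 0.268) between miR-22-treated HCC and healthy livers.

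The balance of the pair was read per kilobase of the canonical transcript. Upp2 supplied 99.8% of uridine phosphorylase transcripts in each healthy liver and between 99.3% and 99.8% in miR-22-treated HCC. The shares in untreated HCC were 49.3%, 78.0% and 82.5%, so that Upp1 was as abundant as Upp2 in the first of these livers. As shares of raw counts the same 3 livers gave 44.1% (95% Wilson interval 36.7% to 51.8%), 74.2% (69.2% to 78.6%) and 79.3% (75.1% to 82.9%), intervals that cover counting error only.

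Tymp and Cda act on the other nucleosides, thymidine phosphorylase on thymidine and cytidine deaminase on cytidine. Tymp stood at 1534, 1537 and 1579 normalized counts in healthy livers, 476, 493 and 983 in untreated HCC, and 906, 853 and 626 in miR-22-treated HCC. All HCC livers lay below all healthy livers, and the HCC groups overlapped each other. Its log2 fold change was -1.25 (SE 0.232) in untreated and -0.97 (SE 0.231) in miR-22-treated HCC against healthy livers, both called, and 0.28 (SE 0.232) between the HCC groups, which was not called. That last value rested on 1 liver: without untreated HCC liver 4 it was 0.71 and met the call. Tymp overlaps exons of Ncaph2, on the other strand, and of Sco2, so its counts are uncertain. Cda ran from 35.9 to 97.6 normalized counts over the 9 livers, the groups overlapped in every comparison, and its log2 fold changes were 0.03, -0.34 and -0.30 with standard errors of 0.315 to 0.324.

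The enzymes that break uracil down were lower in HCC and intermediate with miR-22, in nearly the same proportion at each step. Dpyd, the first and rate-limiting step, stood at 11900, 13885 and 13459 normalized counts in healthy livers, 3598, 3391 and 4797 in untreated HCC, and 8295, 9054 and 5630 in miR-22-treated HCC. Dpys, the second step, stood at 9863, 9143 and 8984, then 2228, 2148 and 3211, then 5427, 5819 and 4678 in the same order. Upb1, the last step, stood at 7030, 7223 and 7244, then 1957, 1651 and 2539, then 4394, 4551 and 3474. For each of the 3 genes every untreated HCC liver lay below every miR-22-treated liver, and every miR-22-treated liver below every healthy liver. Group means in untreated HCC were 30.0% of the healthy mean for Dpyd, 27.1% for Dpys and 28.6% for Upb1. In miR-22-treated HCC they were 58.6%, 56.9% and 57.8%.

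The fold changes of the 3 genes lay close together in each comparison. Against healthy livers the log2 fold change in untreated HCC was -1.74 (SE 0.18) for Dpyd, -1.88 (SE 0.152) for Dpys and -1.81 (SE 0.152) for Upb1. Between the HCC groups it was 0.96 (SE 0.177), 1.07 (SE 0.149) and 1.01 (SE 0.15) in favor of miR-22. Between miR-22-treated HCC and healthy livers it was -0.77 (SE 0.176), -0.81 (SE 0.148) and -0.79 (SE 0.149). In each comparison the differences among the 3 genes were smaller than their standard errors, and all 9 values met the call under each of the 17 alternatives. Upb1 carries the seed match shown above and Dpyd and Dpys carry none.

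**Figure D2:**
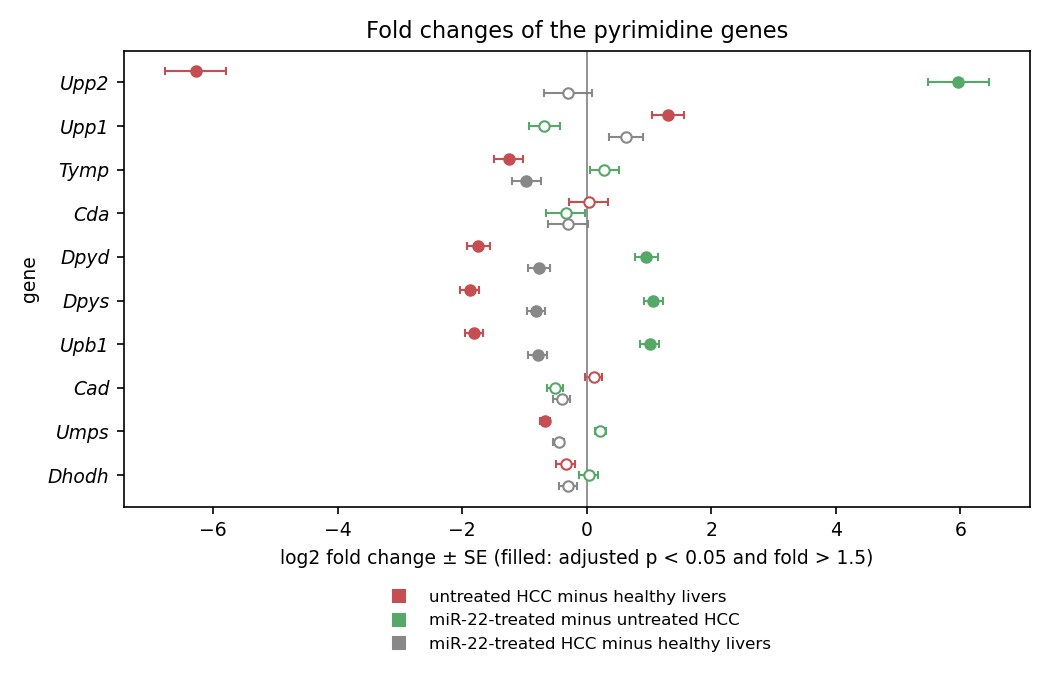
Log2 fold changes of the 10 genes in the 3 comparisons, with standard errors as bars; filled points met the call. Dpyd, Dpys and Upb1 lie together at -1.74 to -1.88 in untreated HCC and at 0.96 to 1.07 with miR-22, while Upp2 lies at -6.28 and 5.97.

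The ratio between the steps was also read in each liver, per kilobase. Healthy livers had 1.40 to 1.76 times as much Dpys as Dpyd, untreated HCC livers 1.32 to 1.42 times and miR-22-treated livers 1.37 to 1.77 times. For Upb1 the ratio to Dpyd was 0.768 to 0.872, 0.719 to 0.803 and 0.742 to 0.911 in the same order. The 3 groups overlapped for both ratios. Upp2 did not keep step with them: healthy livers had 2.67 to 3.03 times as much Upp2 as Dpyd, untreated HCC livers 0.0494 to 0.174 times and miR-22-treated livers 2.74 to 5.07 times.

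The genes of UMP synthesis differed less between groups. All 3 had lower means in miR-22-treated HCC than in healthy livers, without meeting the call, and they had no common direction in the other comparisons. Cad, which carries the first steps from glutamine to dihydroorotate, stood at 632, 664 and 866 normalized counts in healthy livers, 756, 761 and 822 in untreated HCC, and 635, 471 and 531 in miR-22-treated HCC. Untreated HCC lay within the healthy range, and the miR-22-treated livers lay below all untreated HCC livers. The log2 fold changes of 0.11 (SE 0.133), -0.51 (SE 0.134) and -0.40 (SE 0.135), in the order untreated against healthy, treated against untreated and treated against healthy, were not called. The second passed both thresholds when miR-22-treated HCC liver 2 was left out, at -0.64.

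Umps, which makes UMP from orotate, stood at 1281, 1307 and 1223 normalized counts in healthy livers, 861, 778 and 755 in untreated HCC, and 987, 882 and 928 in miR-22-treated HCC. It was the only synthesis gene that met the call, with a log2 fold change of -0.67 (SE 0.0845) in untreated HCC against healthy livers. The change of 0.22 (SE 0.0846) with miR-22 and that of -0.45 (SE 0.0845) between miR-22-treated HCC and healthy livers were not called, although the groups did not overlap in either comparison. Dhodh, the mitochondrial enzyme that feeds electrons from dihydroorotate to the respiratory chain, stood at 288, 216 and 246 in healthy livers, 174, 216 and 204 in untreated HCC, and 224, 194 and 190 in miR-22-treated HCC. Its highest untreated liver and its lowest healthy liver differed by less than 1 count, the HCC groups overlapped, and its log2 fold changes of -0.34 (SE 0.145), 0.03 (SE 0.146) and -0.30 (SE 0.147), in the same order as for Cad, were not called.

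Summed per kilobase, Dpyd, Dpys and Upb1 together stood at 19.4 to 20.7 times Cad, Dhodh and Umps together in healthy livers. The ratio was 6.26 to 9.33 among untreated and 12.8 to 18.2 among miR-22-treated livers, with no overlap between groups. The order of levels within a group changed at the top. Per kilobase, Upp2 was the most abundant of the genes compared in healthy livers (7081 to 9375 normalized counts per kilobase, beside 4258 to 4674 for Dpys), and Upp1 the least (11.5 to 18.3). In untreated HCC, Dpys led in every liver, with 1018 to 1522, and Upp2, at 39.6 to 144, overlapped Cad at 97.6 to 106 and Dhodh at 81.5 to 102. In miR-22-treated HCC, Upp2 again led with 3439 to 10216. Tymp was left out of these comparisons because its annotated transcript is uncertain in length, and the lengths are those of the canonical transcripts, not of the isoforms present.

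Counts of non-overlapping genes were read beside those of all genes. Groups did not overlap for 8 of the 10 genes in untreated HCC against healthy livers, where 65.3% of all tested genes did not. They did not overlap for 7 of 10 between the HCC groups, beside 39.3%, and for 6 of 10 between miR-22-treated HCC and healthy livers, beside 48.8%. The median log2 fold change of the 10 genes was -0.96, 0.25 and -0.42 in the 3 comparisons in that order, beside 0.01, 0.00 and 0.02 over all tested genes.

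Hepatocyte markers moved in the same directions as the breakdown genes. Of 10 markers (Alb, Ttr, Apoa1, Apob, Trf, Cps1, Tat, Hnf4a, Cyp2e1 and Cyp2f2), 8 were called lower and 1 (Trf) higher in untreated HCC against healthy livers, 5 were called higher with miR-22, and 3 were called lower in miR-22-treated HCC against healthy livers. Of all tested genes, 18.1% were called lower and 22.7% higher in the first comparison, 8.32% higher in the second and 7.05% lower in the third. No hepatocyte marker was at 0 in any group. Healthy livers had a summed normalized count of 3037815 to 3172850, untreated HCC livers 1640505 to 1943104 (57.8% of the healthy mean) and miR-22-treated livers 2175686 to 2526859 (76.0%). Per 1000000 hepatocyte marker counts, Dpyd was at 3751 to 4503 among healthy, 2013 to 2469 among untreated and 2588 to 3583 among miR-22-treated livers, still without overlap. Dpys was at 2957 to 3109, 1247 to 1652 and 2150 to 2303, and Upb1 at 2216 to 2385, 1007 to 1307 and 1597 to 1862. Upp2 was at 3642 to 4962, 36.1 to 131 and 2580 to 6598. On this scale too, every untreated HCC liver lay below every healthy and every miR-22-treated liver for each of these 4 genes.

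Markers of other cells were also read. All 7 proliferation markers were called higher in both HCC groups than in healthy livers, and 4 of 7 lower with miR-22. Of all tested genes, 22.7% and 16.9% were called higher in untreated and miR-22-treated HCC against healthy livers, and 5.47% lower with miR-22. The summed proliferation markers stood at 195 to 293 among healthy, 2969 to 3767 among untreated and 1822 to 2732 among miR-22-treated livers. Of 6 cholangiocyte and progenitor markers, 5 were called higher in untreated HCC and 4 lower with miR-22, and their sum was 848 to 1024, 83772 to 146176 and 40729 to 70570. Of the markers that could be tested, 4 of 10 macrophage, all 5 neutrophil (of 8 listed), 1 of 6 T and NK cell (of 9 listed) and 4 of 8 stellate cell and fibroblast markers were called higher in untreated HCC against healthy livers, and 1 of 5 B cell, 3 of 7 endothelial and 2 of 8 stellate cell and fibroblast markers lower. Over all tested genes 22.7% were called higher and 18.1% lower in this comparison, so that the counts for T and NK cells and B cells and the lower stellate cell and fibroblast markers are near those of all genes. The summed neutrophil markers stood at 40.3 to 97.6 normalized counts among healthy, 393 to 511 among untreated and 361 to 597 among miR-22-treated livers, and Ly6g was at 0 in all healthy and untreated HCC livers. With miR-22, 1 T and NK cell, 1 endothelial and 2 stellate cell and fibroblast markers were called higher and 1 stellate cell and fibroblast marker lower against untreated HCC, and no macrophage, neutrophil or B cell marker was called. Between the HCC groups 8.32% of all tested genes were called higher and 5.47% lower, so that 1 called marker in lists this short is near those shares. The part of these cells in the differences of the pyrimidine genes was not tested.

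Livers of a group also differed among themselves. Among the miR-22-treated livers, liver 4 had the lowest Upp2, Tymp, Dpyd, Dpys and Upb1 and liver 3 the highest Upp2, Dpyd, Dpys and Upb1. Akt1, of the kinase family that the injected AKT plasmid encodes in an activated form, stood at 15472, 13027 and 21424 normalized counts in livers 2, 3 and 4, the reverse of that order. Among the untreated livers, liver 4 had the highest Upp2, Tymp, Dpyd, Dpys and Upb1 and the lowest Akt1, at 22700 beside 31315 and 32454. The lowest untreated liver was not the same for all of them: liver 2 was lowest in Upp2 and Tymp, and liver 3 in Dpyd, Dpys and Upb1. Healthy livers held 2002 to 2105 of Akt1, and there liver 1 was lowest in Upp2, Dpyd and Upb1 but highest in Dpys. With 3 livers a group this is a listing of values, and the part of tumor load in the differences was not tested.

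The genes whose pattern was most like that of Upp2 were taken by the Pearson correlation of log2 CPM (counts scaled to library size) over the 9 livers. Because the 9 points fall into 3 groups, the correlations mostly restate the group differences and are given as a description. The 10 highest, at r = 0.988 to 0.994, were N4bp2l1, Sdc4 (syndecan-4, a cell surface proteoglycan), Gpcpd1 (a glycerophosphocholine phosphodiesterase), Gm50237, Lrit2, Gm43690, Nr1d2 (a nuclear receptor of the circadian clock), Hykk (hydroxylysine kinase), Crp (C-reactive protein) and Ppm1k (the phosphatase that activates branched-chain amino acid breakdown). Their ranges in normalized counts were narrower than that of Upp2: N4bp2l1 averaged 1914, 337 and 1507 and Ppm1k 2343, 324 and 2033 in healthy livers, untreated HCC and miR-22-treated HCC. By Spearman's rank correlation, 1 of the 10 was among the 10 highest. Of the pyrimidine genes, Dpys (0.912), Upb1 (0.901) and Dpyd (0.897) had the highest Pearson correlation with Upp2 and Upp1 (-0.863) the lowest.

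A further 63 nucleotide genes in 8 lists were tested, of which 56 passed the filter on low counts. They were not used to pick the set of 10 genes, but these lists too were drawn up with earlier results of these data known. They are given with p-values from the fit over all genes, which do not allow for that choice. In untreated HCC against healthy livers 24 of 56 passed, 11 higher and 13 lower (42.9%, beside 40.8% of all genes). Between the HCC groups 10 passed, 8 higher and 2 lower with miR-22 (17.9%, beside 13.8%). Between miR-22-treated HCC and healthy livers 16 passed, 7 higher and 9 lower (28.6%, beside 24.0%).

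The enzymes that take the β-amino acids further fell along with the breakdown genes. All 3 fell in untreated HCC, where 18.1% of all genes were called lower, and 2 of 3 rose with miR-22, where 8.32% were called higher. Their median log2 fold change in untreated HCC was -1.84, beside 0.01 for all genes. Abat, the transaminase that takes up β-alanine, stood at 9235, 10791 and 10505 normalized counts in healthy livers, 2668, 2420 and 3437 in untreated HCC, and 6287, 5504 and 3509 in miR-22-treated HCC. The groups did not overlap, although miR-22-treated liver 4 came close to untreated liver 4. Abat fell by 1.84 on the log2 scale (SE 0.195, adjusted p = 5.65e-06, edgeR) and rose by 0.84 with miR-22 (SE 0.191, adjusted p = 0.00762). Aldh6a1, the dehydrogenase for the semialdehydes made from β-alanine and β-aminoisobutyrate, fell by 1.85 (SE 0.168, adjusted p = 1.61e-06) and rose by 0.99 with miR-22 (SE 0.165, adjusted p = 0.00141). Agxt2, which transaminates β-aminoisobutyrate, fell by 0.99 (SE 0.143, adjusted p = 7.51e-05); its 0.52 with miR-22 (adjusted p = 0.0204) was under the fold threshold.

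**Figure D3:**
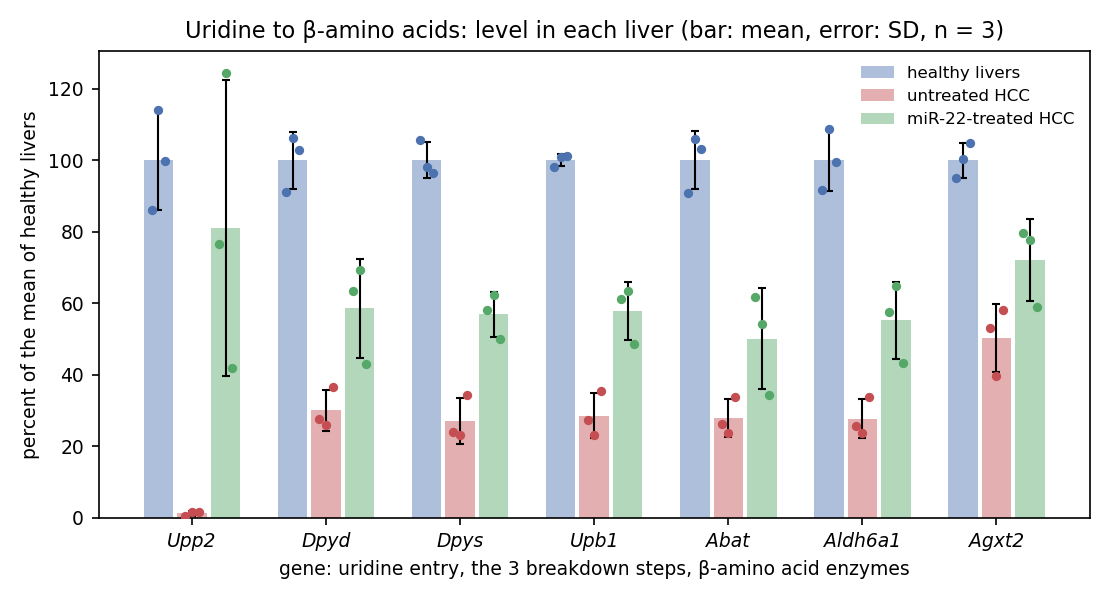
Level of Upp2, Dpyd, Dpys, Upb1, Abat, Aldh6a1 and Agxt2 in each liver as percent of the mean of healthy livers, with bars for group means, error bars for SD (n = 3) and a point for each liver. Untreated HCC lay at 1.28% for Upp2 and at 27.1% to 30.0% for Dpyd, Dpys and Upb1, and miR-22-treated HCC at 81.0% and at 56.9% to 58.6%.

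Most genes that make CTP, deoxynucleotides and thymidylate rose in untreated HCC. Of 9 tested, 6 rose and none fell (66.7%, beside 40.8% of all genes), and the median was 0.96. Rrm2, the small subunit of ribonucleotide reductase, stood at 69.5, 77.0 and 69.3 normalized counts in healthy livers, 407, 572 and 429 in untreated HCC, and 412, 439 and 554 in miR-22-treated HCC. Rrm2 rose by 2.70 (SE 0.173, adjusted p = 1.11e-07) and the HCC groups overlapped, with adjusted p = 0.997 between them. Rrm1, its large subunit, rose by 1.21 (SE 0.14, adjusted p = 1.15e-05), with -0.15 between the HCC groups (adjusted p = 0.452). Ctps, which makes CTP from UTP, stood at 174, 204 and 240 in healthy livers, 958, 969 and 774 in untreated HCC, and 503, 418 and 565 in miR-22-treated HCC. It rose by 2.12 (SE 0.15, adjusted p = 2.26e-07) in untreated HCC and fell by 0.86 with miR-22 (SE 0.141, adjusted p = 0.00129), the only gene of its list called between the HCC groups.

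Of the 10 salvage kinases, which return nucleosides to nucleotides, 2 rose and 1 fell in untreated HCC (30.0% called, beside 40.8% of all genes), and 1 of 10 rose with miR-22 (beside 13.8% of all genes). These shares do not exceed those of all genes. Tk1, the cytosolic thymidine kinase, stood at 1587, 1334 and 1189 normalized counts in healthy livers, 268, 318 and 315 in untreated HCC, and 708, 735 and 586 in miR-22-treated HCC. It fell by 2.19 (SE 0.13, adjusted p = 6.45e-08) and rose by 1.17 with miR-22 (SE 0.129, adjusted p = 0.000168), while all 7 proliferation markers listed above were called higher in untreated HCC. Exons shared with other genes were looked for only in the 10 pyrimidine genes, and not for Tk1. The libraries do not keep strand, so reads of a neighboring gene in the Tk1 counts were not examined. Cmpk2, a mitochondrial pyrimidine nucleotide kinase that interferon induces, rose by 2.43 (SE 0.285, adjusted p = 1.3e-05), and Dck, deoxycytidine kinase, by 1.14 (SE 0.193, adjusted p = 0.000256). Neither was called between the HCC groups, at -0.56 (adjusted p = 0.126) and -0.27 (adjusted p = 0.322).

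Of 4 tested nucleoside transporters, 1 fell and 1 rose in untreated HCC (50.0%, beside 40.8% of all genes). Slc29a1, the equilibrative transporter that carries uridine across the plasma membrane, stood at 6604, 6224 and 6493 normalized counts in healthy livers, 1748, 2124 and 2521 in untreated HCC, and 4010, 4259 and 3874 in miR-22-treated HCC. It fell by 1.60 (SE 0.124, adjusted p = 4.67e-07) and rose by 0.92 with miR-22 (SE 0.122, adjusted p = 0.000431), and the 3 groups did not overlap. Slc29a3, the lysosomal member of the family, rose by 0.94 (SE 0.176, adjusted p = 0.000553). Slc28a1, Slc28a3 and Slc29a4 had too few counts to be tested.

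Among 8 tested genes that dephosphorylate nucleotides, 1 rose and 2 fell in untreated HCC (37.5%, beside 40.8% of all genes) and none was called with miR-22 (beside 13.8% of all genes). Nt5e, the cell surface 5′-nucleotidase CD73, fell by 1.11 (SE 0.141, adjusted p = 2.56e-05), Dctpp1, a dCTP pyrophosphatase, fell by 0.72 (SE 0.113, adjusted p = 0.000137), and Nt5c3b, a cytosolic 5′-nucleotidase, rose by 0.79 (SE 0.155, adjusted p = 0.000822). Between the HCC groups their values were 0.17 (adjusted p = 0.437), 0.44 (adjusted p = 0.0147) and -0.30 (adjusted p = 0.182). None of the 4 genes that supply phosphoribosyl pyrophosphate, the sugar donor of both nucleotide families, was called in any comparison, and their median log2 fold change was -0.06 in untreated HCC.

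The purine genes were read beside the pyrimidine genes. Of 11 purine synthesis genes, 1 rose and 2 fell in untreated HCC (27.3%, beside 40.8% of all genes). Impdh1, an inosine monophosphate dehydrogenase on the way to guanine nucleotides, rose by 2.04 (SE 0.213, adjusted p = 4.75e-06) and fell by 0.69 with miR-22 (SE 0.195, adjusted p = 0.0226). That fall lost its call when untreated HCC liver 2 or 3 or miR-22-treated liver 2 or 3 was left out (adjusted p = 0.052 to 0.0951). Adssl1, an adenylosuccinate synthase, fell by 1.11 (SE 0.122, adjusted p = 7.7e-06), and Ppat, the first committed step, by 0.62 (SE 0.124, adjusted p = 0.000938). Ppat went under the fold threshold, at -0.58 to -0.50, under 3 of the 17 alternatives.

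Of 7 tested purine breakdown genes, 4 fell in untreated HCC (57.1%, beside 18.1% of all genes called lower) and 4 rose with miR-22 (57.1%, beside 8.32% called higher). Urad, which decarboxylates an intermediate of urate breakdown to allantoin, stood at 1279, 1057 and 1035 normalized counts in healthy livers, 144, 152 and 169 in untreated HCC, and 650, 664 and 387 in miR-22-treated HCC. It fell by 2.86 (SE 0.189, adjusted p = 1.38e-07) and rose by 1.86 with miR-22 (SE 0.187, adjusted p = 8.41e-05). Uox, urate oxidase, fell by 1.29 (SE 0.149, adjusted p = 1.13e-05) and rose by 0.86 (SE 0.148, adjusted p = 0.00163). Urah, which acts between them, fell by 1.36 (SE 0.094, adjusted p = 1.92e-07) and rose by 0.71 (SE 0.0933, adjusted p = 0.000426). The list's median was -0.76 in untreated HCC and 0.60 with miR-22.

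**Figure D4:**
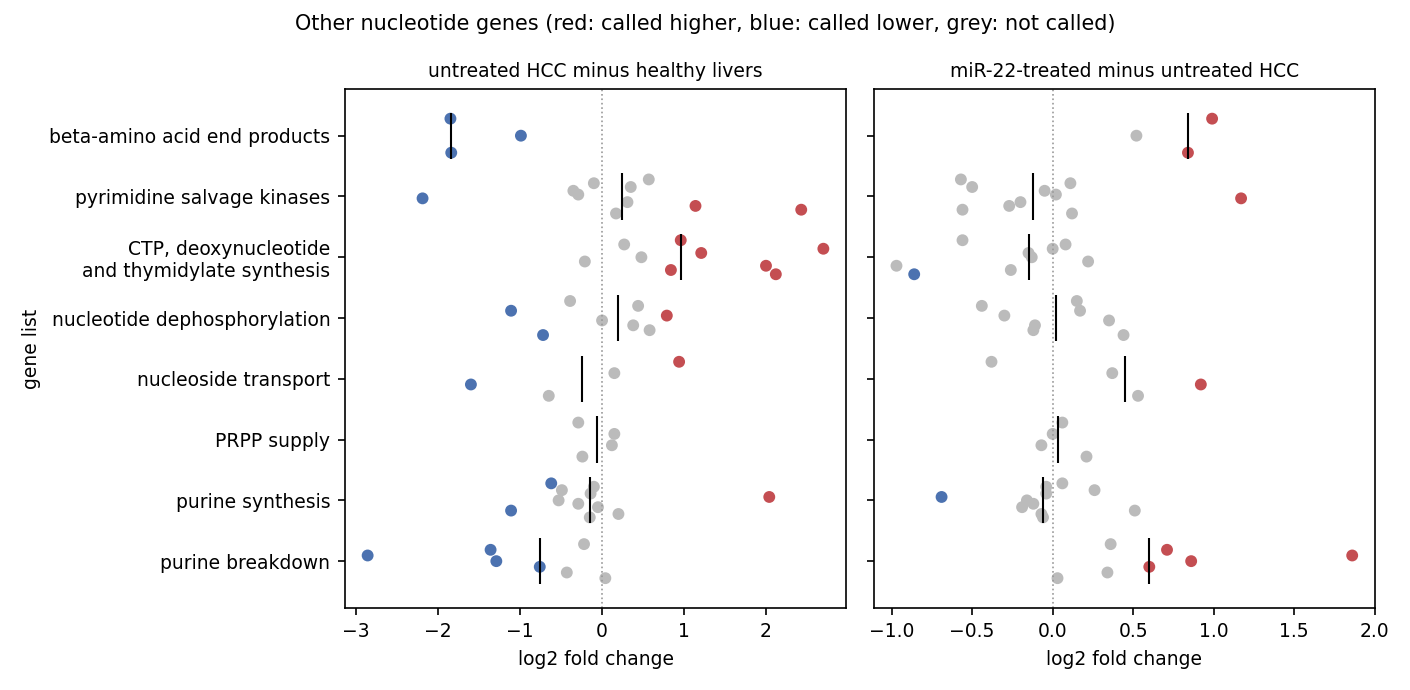
Log2 fold changes of the 56 tested genes of the 8 nucleotide lists in untreated HCC against healthy livers (left) and in miR-22-treated against untreated HCC (right), with a point for each gene, a black line for each list's median, and called genes in red (higher) or blue (lower). All 3 β-amino acid genes lie at -0.99 or below on the left, and 6 of 9 genes of CTP, deoxynucleotide and thymidylate synthesis are red there.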

How the data were processed

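Total RNA of whole livers was sequenced from non-stranded libraries as pairs of 150 bases. The authors ran FastQC 0.11.7, Salmon on GRCm39 with a GENCODE annotation, tximport to reach gene level and DESeq2 1.18. The deposited values used here are whole-number raw counts. A second deposited table of normalized values was not used. Replicate livers differed by more than counting noise (chi-square per degree of freedom 6.60 to 31.3).

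The test was the edgeR 4.0.16 fit in R 4.3.3 (filterByExpr, TMM, two-sided quasi-likelihood F test, the 3 groups in 1 fit, Benjamini-Hochberg adjustment over 15717 genes), a procedure checked on simulated counts. The common dispersion was 0.0206. The simulated counts used this value for every gene and held few changed genes. They do not cover genes with a wider spread or the many genes called here. A standard error is the log2 fold change divided by the square root of F. The p-values set a group difference against the spread between livers, pooled over the 3 groups and in part shared across genes. Sequences were read with Python 3.11.15, and figures drawn with matplotlib 3.10.9. The 10 genes and all gene lists were chosen with earlier results of these data known. Named from the 8 further lists were up to 3 called genes with the smallest p in each of the comparisons of untreated HCC with healthy livers and of the HCC groups, and the 10 genes most correlated with Upp2. Samples were grouped by their titles. Alternatives were DESeq2 1.42.0 (Wald test), its size factors or upper-quartile scaling in edgeR, no filter, at least 10 counts in every library, 2 groups alone, a replicate block, limma-trend (limma 3.58.1) and each liver left out.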

Additional observations from a re-analysis of the deposited data

How the results depend on the processing

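Counts of called genes, the fold changes of the 10 pyrimidine genes, and those of the other named nucleotide genes in the comparisons that named them were recomputed under 17 alternatives, 9 of which leave out 1 liver each. Of the 10 pyrimidine genes, 7 met the call in untreated HCC against healthy livers and 4 in miR-22-treated HCC against healthy livers under every alternative, and between the HCC groups the count ran from 4 to 5. Of 510 fold changes of these genes, 509 moved by less than 1 SD between livers and no called one changed sign. The exception was Tymp in untreated HCC, at -1.68 without untreated HCC liver 4. Of 493 values of the other named nucleotide genes, 7 lost the call, those of Impdh1 and Ppat, and none reversed. Counts over the 8 further lists ran from 24 to 28, 8 to 12 and 14 to 19 in the 3 comparisons. The number of all genes called between the HCC groups was 2167 and ran from 1433 (without miR-22-treated HCC liver 3) to 2660 (without miR-22-treated HCC liver 4), and the 859 of them called lower became 415 and 1149. The Upp2 share of uridine phosphorylase transcripts kept its order among the groups when counts were not divided by length.

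Between the HCC groups, the correlations of the deviations of same-numbered livers were -0.235 to -0.121. Deviations from the mean of so few livers cancel within each group, which ties these correlations to those of different-numbered livers. Whether the replicate numbers pair the livers therefore cannot be decided from these correlations. With the replicate number as a block, 5863, 1745 and 3044 genes were called in place of 6417, 2167 and 3772, and the counts of the 10 pyrimidine genes stayed at 7, 4 and 4. The counting limit bears mainly on Upp1 and Cda, which held 19 to 114 reads a liver, and on Upp2 in untreated HCC.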
